A study of Arabidopsis thaliana with 27 samples.

Results

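Alpha-expansins are secreted plant proteins that let cell walls extend at acid pH, and 10 genes of this family were followed here through seedlings of 5 genotypes. They were EXPA1, EXPA3, EXPA4, EXPA5, EXPA6, EXPA8, EXPA9, EXPA10, EXPA11 and EXPA15, taken by their locus identifiers from the 32678 genes listed for every library. All 10 passed the filter on low counts, which left 21448 genes, and each had between 34 and 9709 reads in a library.

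Expansins loosen the contacts between cellulose and the polysaccharides that coat it, without cutting either, and the wall then yields to turgor pressure. Proton pumps of the plasma membrane supply the acid pH, and cellulose synthases supply new wall, so that expansins act as one part of cell enlargement. Several alpha-expansin genes are known targets of growth regulators such as brassinosteroid, auxin, gibberellin and the PIF transcription factors, and light holds down elongation of the hypocotyl while it promotes expansion of cotyledons and leaves. Of the members, EXPA1 is known from guard cells and stomatal opening, EXPA10 from leaf size and the shedding of flower stalks, and EXPA5 from growth promoted by brassinosteroid.

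The series holds 27 RNA libraries made from whole seedlings of Arabidopsis thaliana, with 3 in each of 9 groups. Plants grew for about a week on MS medium at 22 °C with 8 h of light and 16 h of darkness a day, and were sampled 6 h after lights on (ZT6) or at lights on (ZT0). The groups were vil1-1cop1-4, cop1-4, vil1-1 and wild type Col-0 at both times, and hy5-215 at ZT0 only. COP1 is part of an E3 ubiquitin ligase that removes light-signalling factors in darkness, HY5 is one of those factors, and VIL1 is a PHD-finger protein that works with Polycomb repressive complex 2. Each mutation is represented by 1 allele in 1 line, and the labels do not tell whether the 3 libraries of a group derive from independent cultures. The p-values therefore describe variation among the libraries at hand, which may be technical. In RNA of whole seedlings, fewer cells of a type and less RNA per cell cannot be told apart.

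Levels are given as CPM (counts per M reads in genes, M being 1000000), on library sizes scaled by the trimmed mean of M values (TMM). A gene counts as changed where its Benjamini-Hochberg adjusted p in edgeR's quasi-likelihood test, adjusted over all 21448 genes, was under 0.05. Log2 fold changes carry an approximate standard error (SE), the absolute log2 fold change divided by the square root of the F statistic of that test. The fit itself did not estimate this SE. Levels carry their SD with n = 3. Depth ran between 19.7 and 33.6 M reads in genes per library. VIL1 was read at 5.93 ± 1.19 CPM in vil1-1 and 23.1 ± 1.01 CPM in Col-0 at ZT6, and COP1 and HY5 transcripts were still read in their own mutants, where the level of the transcript does not test the allele. The 3 hy5-215 libraries held 2.16 to 2.89% of reads outside genes, against 0.586 to 1.12% in the other 24, so a difference in library preparation and the genotype cannot be told apart for this line. All mutants were compared with the same Col-0 libraries of a time.

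The 10 genes are separate loci in the TAIR10.1 annotation, none of them overlapping another annotated gene. EXPA1 (AT1G69530) lies at chr1:26141726-26143538 on the plus strand, and EXPA10 (AT1G26770), its closest relative among the members with 80.3% identity of aligned coding bases, at chr1:9259432-9261313 on the plus strand. EXPA11 (AT1G20190) lies at chr1:6998335-6999839 on the minus strand. EXPA3 (AT2G37640, chr2:15787523-15790139), EXPA4 (AT2G39700, chr2:16543832-16545746), EXPA6 (AT2G28950, chr2:12431338-12433796), EXPA8 (AT2G40610, chr2:16948791-16950705) and EXPA15 (AT2G03090, chr2:916806-918671) all lie on the minus strand of chromosome 2. EXPA5 (AT3G29030) lies at chr3:11011262-11013451 on the minus strand and EXPA9 (AT5G02260) at chr5:463073-465273 on the plus strand. The most distant pairs, EXPA4 with EXPA11 and EXPA9 with EXPA11, shared 64.3% of aligned coding bases. Every 50-base word of the members' exons occurred once in the genome, so that no identical stretch of this length is shared with another locus. Copies that differ by a few bases were not searched for.

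The 300 bases before the annotated gene start are shown for 4 members, chosen by their calls in cop1-4 against Col-0 at ZT0. EXPA1, EXPA10 and EXPA11 were the members that were not called lower there, and EXPA8 was one of the 7 that were. For EXPA10 and EXPA11 the libraries of cop1-4 and Col-0 overlapped. The call of EXPA10 as higher held in 5 of 14 alternatives, and EXPA11 was called lower under upper-quartile scaling. The sequences were read from the TAIR10.1 genome, 5′ to 3′ on the strand of the gene, and capitals mark the PBE-box (CACATG on either strand, a motif bound by PIF factors) and the BRRE (CGTGTG or CGTGCG on either strand, a motif bound by brassinosteroid-response factors). The choice of these 4 was made with the values known. Of the 7 called lower, EXPA6 holds a BRRE in this window and is not shown.
EXPA1, chr1:26141426-26141725, plus strand: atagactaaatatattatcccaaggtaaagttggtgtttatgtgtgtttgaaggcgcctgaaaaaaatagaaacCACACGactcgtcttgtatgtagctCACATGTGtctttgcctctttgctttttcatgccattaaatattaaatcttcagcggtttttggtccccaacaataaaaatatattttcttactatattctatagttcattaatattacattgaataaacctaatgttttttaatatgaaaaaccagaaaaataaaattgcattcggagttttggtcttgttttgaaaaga
EXPA10, chr1:9259132-9259431, plus strand: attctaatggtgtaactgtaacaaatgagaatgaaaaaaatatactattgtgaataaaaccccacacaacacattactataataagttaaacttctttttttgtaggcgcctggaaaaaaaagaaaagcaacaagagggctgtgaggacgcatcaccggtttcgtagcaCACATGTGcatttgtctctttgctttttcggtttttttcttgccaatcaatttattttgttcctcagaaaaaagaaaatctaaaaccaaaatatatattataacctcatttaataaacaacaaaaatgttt
EXPA11, chr1:6999840-7000139, minus strand: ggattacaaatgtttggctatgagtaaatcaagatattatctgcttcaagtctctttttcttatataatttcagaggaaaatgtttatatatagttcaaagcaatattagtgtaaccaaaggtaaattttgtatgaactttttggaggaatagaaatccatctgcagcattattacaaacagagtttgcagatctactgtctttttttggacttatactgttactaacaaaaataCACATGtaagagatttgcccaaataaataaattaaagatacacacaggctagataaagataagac
EXPA8, chr2:16950706-16951005, minus strand: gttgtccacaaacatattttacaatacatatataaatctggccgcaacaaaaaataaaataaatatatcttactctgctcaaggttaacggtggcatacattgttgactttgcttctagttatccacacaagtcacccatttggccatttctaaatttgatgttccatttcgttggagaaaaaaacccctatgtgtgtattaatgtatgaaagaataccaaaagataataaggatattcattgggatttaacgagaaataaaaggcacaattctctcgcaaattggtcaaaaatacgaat

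The EXPA1 and EXPA10 windows share the palindrome CACATGTG, which holds a pair of overlapping PBE-boxes, at 201 and 131 bases before the gene start (positions -201 and -131). Of 27443 protein-coding genes, 0.459% hold CACATGTG in this window, and among the members only EXPA1 and EXPA10 do. A few bases further on, both windows carry ctctttgctttttc, at 14 bases the longest run shared by any pair of members. The next longest, of 13 bases, is shared by EXPA1 and EXPA9 on opposite strands. Each run was found by comparing the windows of a pair, so its presence in both was fixed in advance. The 14-base run occurs in 2 of the 27443 windows on either strand, those of EXPA1 and EXPA10 themselves. That count therefore does not measure how rare such a shared run is. EXPA11 has a PBE-box at -65, which makes 3 of 10 members with this motif in the window against 13.1% of all genes. EXPA1 and EXPA6 carry a BRRE, at -226 and -90, against 7.64% of all genes. The G-box CACGTG, which HY5 and PIF factors bind, occurs in 0 of the 10 windows and in 7.09% of all windows, and likewise in 0 of 10 members and 14.8% of all genes within 1000 bases. Over 1000 bases, 6 members hold a PBE-box, against 37.7% of all genes. The other 3 are EXPA3, EXPA8 and EXPA15, which were all lower in cop1-4 at ZT0. EXPA4, EXPA5, EXPA6 and EXPA9 were lower there too and hold no PBE-box within 1000 bases. A match describes letters only, and was chosen for display after the values were seen.

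**Figure D1:**
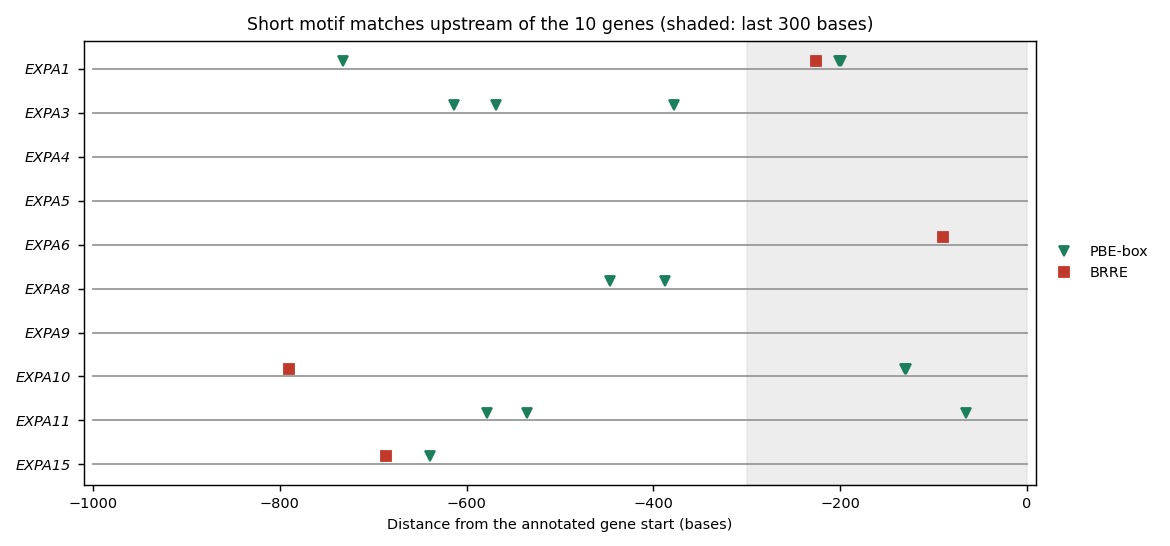
Positions of PBE-box (triangles) and BRRE (squares) matches on either strand within 1000 bases before the annotated start of each of the 10 genes, in bases from the start; the shaded part is the 300-base window. In the shaded part PBE-boxes stand in EXPA1, EXPA10 and EXPA11, and BRREs in EXPA1 and EXPA6.

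Per kilobase of exon, the 10 genes spanned a wide range of levels. In Col-0 at ZT0, EXPA1 was highest at 95.6 CPM per kb and EXPA8 next at 76.2, followed by EXPA3 at 46.7, EXPA6 at 41.0, EXPA11 at 25.9, EXPA9 at 20.5, EXPA4 at 14.1, EXPA5 at 8.10, EXPA10 at 6.65 and EXPA15 at 6.33. Of the 9 neighbouring pairs in this order, only EXPA10 and EXPA15 had libraries that overlapped. In the cop1-4 lines at ZT6, where the lower-ranked genes lay close together, 6 of 9 neighbouring pairs overlapped in cop1-4 and 6 of 9 in vil1-1cop1-4.

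The summed level of the 10 genes per kilobase was lower in both lines with cop1-4 at ZT6, and these lines overlapped each other. At ZT6 it was 274.4 ± 12.0 CPM per kb in vil1-1cop1-4, 284.1 ± 6.08 in cop1-4, 697.2 ± 21.6 in vil1-1 and 586.1 ± 24.9 in Col-0. At ZT0 it was 302.9 ± 24.2 in vil1-1cop1-4, 353.8 ± 44.4 in cop1-4, 368.7 ± 4.63 in vil1-1, 605.4 ± 36.7 in hy5-215 and 341.1 ± 4.57 in Col-0. The sum in cop1-4 lay on both sides of Col-0 at ZT0, since its 3 libraries ran between 302.7 and 382.1 and those of Col-0 between 336.3 and 345.4, while the make-up of the sum differed. EXPA1 alone gave 63.1% of the sum in cop1-4 at ZT0 and 55.7% in vil1-1cop1-4, against 28% in Col-0, and at ZT6 it gave 41.2% in cop1-4 and 39.6% in vil1-1cop1-4, against 27% in Col-0. In hy5-215 and in vil1-1 at ZT0, EXPA8 gave the highest share, 26.7% and 26.4%, with EXPA1 at 17.5% and 22.4%.

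**Figure D2:**
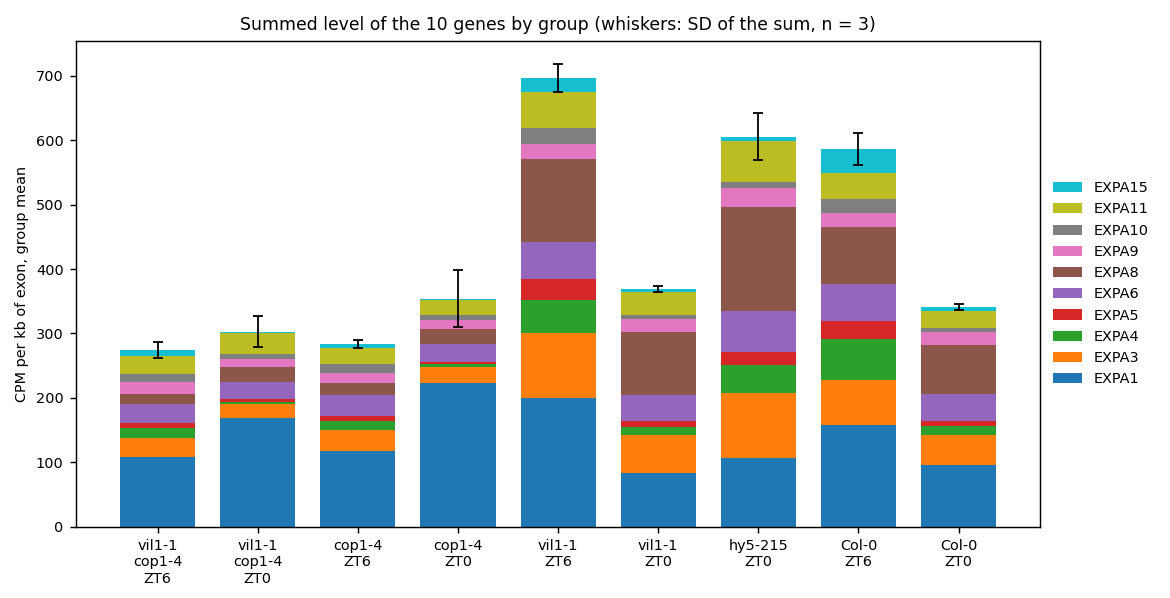
Summed level of the 10 genes in each group, in CPM per kb of exon, stacked by gene from EXPA1 at the base to EXPA15 at the top; whiskers are the SD of the sum over 3 libraries. The sum at ZT6 is 284.1 in cop1-4 and 586.1 in Col-0, and the EXPA1 block takes 63.1% of the bar in cop1-4 at ZT0.

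The members also differed in how far they ranged over the 9 groups. EXPA15 spanned 4.62 on the log2 CPM scale, EXPA4 3.93, EXPA5 3.90 and EXPA8 3.26, while EXPA9, EXPA6, EXPA1 and EXPA11 spanned between 1.18 and 1.43. EXPA3, EXPA6, EXPA8, EXPA9 and EXPA11 had their highest mean in hy5-215 at ZT0, EXPA5 and EXPA10 in vil1-1 at ZT6, and EXPA4 and EXPA15 in Col-0 at ZT6. EXPA1 was alone in having its highest mean in cop1-4 at ZT0, although these libraries overlapped those of vil1-1 at ZT6, the next group in order. The highest group also overlapped the next one for EXPA3, EXPA6 and EXPA11, between hy5-215 at ZT0 and vil1-1 at ZT6, and for EXPA10, between vil1-1 and Col-0 at ZT6. Ordered by mean, EXPA3 had 1 overlapping pair among its 8 neighbouring pairs of groups, between hy5-215 at ZT0 and vil1-1 at ZT6, and EXPA8 had 2, among cop1-4 at both times and vil1-1cop1-4 at ZT0. EXPA6, EXPA9 and EXPA11 had 6 of 8 neighbouring pairs overlapping. Over the 9 group means, which share Col-0 and the sampling times, EXPA3 and EXPA6 had a Pearson r of 0.974 and EXPA4 and EXPA5 of 0.965, whereas EXPA1 had an r between -0.428 and 0.390 with every other member. EXPA10 also had low values, and its r ran between 0.173 with EXPA8 and 0.839 with EXPA15.

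**Figure D3:**
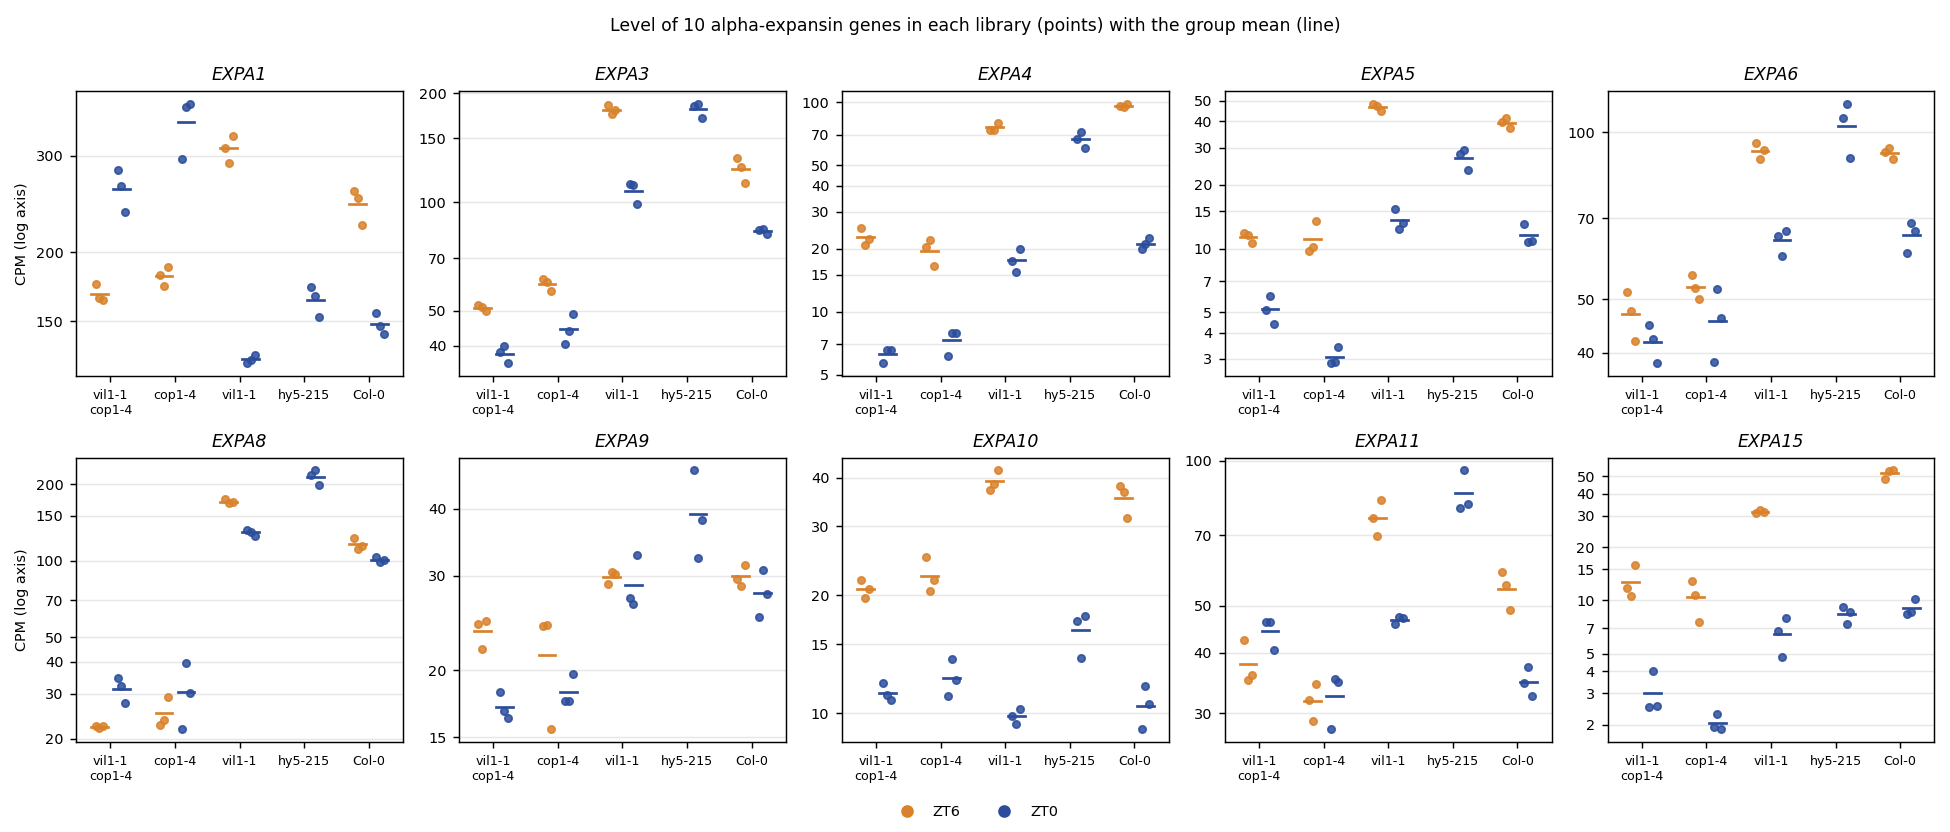
Level of each of the 10 genes in CPM on a log axis, with 1 point per library and a line at the group mean, for vil1-1cop1-4, cop1-4, vil1-1, hy5-215 and Col-0 at ZT6 (orange) and ZT0 (blue). EXPA1 in cop1-4 has its ZT6 points, 174 to 188 CPM, below its ZT0 points, 296 to 372 CPM, while in Col-0 the ZT6 points, 224 to 259 CPM, lie above the ZT0 points, 142 to 155 CPM.

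In Col-0, most of the genes were higher at ZT6 than at ZT0, and 4 of them by more than 3-fold. EXPA15 had 48.6, 53.3 and 54.0 CPM at ZT6 and 8.37, 8.65 and 10.2 CPM at ZT0. EXPA4 had 96.6, 95.2 and 98.2 CPM at ZT6 and 19.99, 21.1 and 22.4 CPM at ZT0. EXPA5, the gene known from brassinosteroid growth, had 39.6, 41.5 and 37.2 CPM at ZT6 and 13.1, 10.7 and 10.8 CPM at ZT0, and EXPA10, the gene known from leaf size, 38.0, 36.7 and 31.6 CPM at ZT6 and 9.08, 11.8 and 10.5 CPM at ZT0. In all 4 the libraries of the times stood well apart. The log2 fold changes were 2.51 ± 0.16 for EXPA15 (adjusted p = 2.3e-12), 2.19 ± 0.08 for EXPA4 (1.2e-22), 1.77 ± 0.10 for EXPA5 (5.9e-19) and 1.76 ± 0.09 for EXPA10 (1.2e-20).

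EXPA1, EXPA11, EXPA3 and EXPA6 rose less, by log2 fold changes of 0.73 ± 0.07, 0.64 ± 0.09, 0.57 ± 0.06 and 0.49 ± 0.08. EXPA1, the guard cell gene, had 259, 252 and 224 CPM at ZT6 and 155, 147 and 142 CPM at ZT0. EXPA8 and EXPA9 did not pass the threshold. EXPA8 had 123, 112 and 114 CPM at ZT6 and 104, 98.9 and 101 CPM at ZT0, a log2 fold change of 0.20 ± 0.11 (adjusted p = 0.12) although the libraries did not overlap, and a fit of the Col-0 libraries alone gave an adjusted p of 0.003. EXPA9 had a log2 fold change of 0.11 ± 0.13 (adjusted p = 0.48). In all, 8 of 10 members were higher and 0 lower, with a median log2 fold change of 0.68. Over the 21448 genes, 70.9% were called in this comparison, 36.9% higher and 34% lower, with a median of 0.02.

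At ZT6, all 10 genes were lower in cop1-4 than in Col-0. EXPA4 had 20.3, 21.9 and 16.6 CPM in cop1-4 and 96.6, 95.2 and 98.2 CPM in Col-0, and EXPA15 had 12.8, 10.8 and 7.61 CPM in cop1-4 and 48.6, 53.3 and 54.0 CPM in Col-0. EXPA8 had 22.6, 23.7 and 29.0 CPM in cop1-4 and 123, 112 and 114 CPM in Col-0. Every cop1-4 library of these 3 genes lay far below every Col-0 library. EXPA15 fell by 2.32 ± 0.16 on the log2 scale (adjusted p = 1.9e-11), EXPA4 by 2.31 ± 0.09 (3.6e-22) and EXPA8 by 2.21 ± 0.13 (3.4e-12).

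The drop in EXPA5 was of similar size, with 9.70, 10.2 and 13.5 CPM in cop1-4 and 39.6, 41.5 and 37.2 CPM in Col-0, a log2 fold change of -1.82 ± 0.10 (adjusted p = 1.8e-18). EXPA3 fell by 1.06 on the log2 scale, EXPA6 by 0.81, EXPA11 by 0.77, EXPA10 by 0.66, EXPA9 by 0.49 and EXPA1 by 0.43, with adjusted p-values between 8.3e-19 for EXPA3 and 0.0035 for EXPA9. The median over the 10 genes was -0.93. Over all genes 66.6% were called in this comparison, 34% lower and 32.6% higher, with a median of -0.02. The summed level of 10 root and root hair markers was also lower, 67.7 to 76.3 CPM in cop1-4 and 161 to 167 CPM in Col-0 at ZT6, and 3 of the 10 were higher and 6 lower. Most of that gap was IRT1, an iron transporter of the root surface, at 1.74 CPM in cop1-4 and 89.1 CPM in Col-0, and the part of root tissue in the expansin values was not tested.

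At ZT0 the genes parted. EXPA1 had 296, 368 and 372 CPM in cop1-4 and 155, 147 and 142 CPM in Col-0, so that every cop1-4 library was above every Col-0 library, and it rose by 1.22 ± 0.07 on the log2 scale (2.33-fold, adjusted p = 4.9e-17). EXPA15 had 1.95, 2.29 and 1.88 CPM in cop1-4 and 8.37, 8.65 and 10.2 CPM in Col-0, and fell by 2.16 ± 0.25 (8.4e-08). EXPA5 had 2.87, 2.90 and 3.43 CPM in cop1-4 and 13.1, 10.7 and 10.8 CPM in Col-0, and fell by 1.91 ± 0.14 (6.6e-15). These are the lowest means of both genes in the series.

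EXPA8 and EXPA4 were lower as well. EXPA8 had 21.7, 39.7 and 30.1 CPM in cop1-4 and 104, 98.9 and 101 CPM in Col-0, a log2 fold change of -1.73 ± 0.13 (adjusted p = 1.4e-10), with an uneven spread among the cop1-4 libraries. EXPA4 had 6.13, 7.93 and 7.89 CPM in cop1-4 and 19.99, 21.1 and 22.4 CPM in Col-0, a log2 fold change of -1.52 ± 0.11 (1.5e-14). Smaller falls passed the threshold for EXPA3 (-0.90), EXPA9 (-0.61) and EXPA6 (-0.52).

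EXPA10 and EXPA11 did not pass as lower at ZT0. EXPA10 had 11.1, 13.7 and 12.2 CPM in cop1-4 and 9.08, 11.8 and 10.5 CPM in Col-0, with overlapping libraries, and its log2 fold change of 0.24 ± 0.11 passed the threshold narrowly (adjusted p = 0.043) but was -0.01 (0.92) under upper-quartile scaling. That call was also lost without Col-0 replicate 1 (0.26) or 3 (0.069) and without cop1-4 replicate 2 (0.39) or 3 (0.14). EXPA11 had 27.7, 35.2 and 34.7 CPM in cop1-4 and 34.6, 37.3 and 32.5 CPM in Col-0, a log2 fold change of -0.09 ± 0.10 (adjusted p = 0.43) that became -0.35 (0.003) under upper-quartile scaling. In all, 2 members were higher, 7 lower and 1 not past the threshold, with a median of -0.75. Over all genes 68.5% were called, 34.7% higher and 33.9% lower. The summed root markers were 118 to 131 CPM in cop1-4 and 141 to 155 CPM in Col-0, with NRT2.1 at 0 in cop1-4, and 2 of the 10 were higher and 4 lower. The part of root tissue in these values was not tested.

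**Figure D4:**
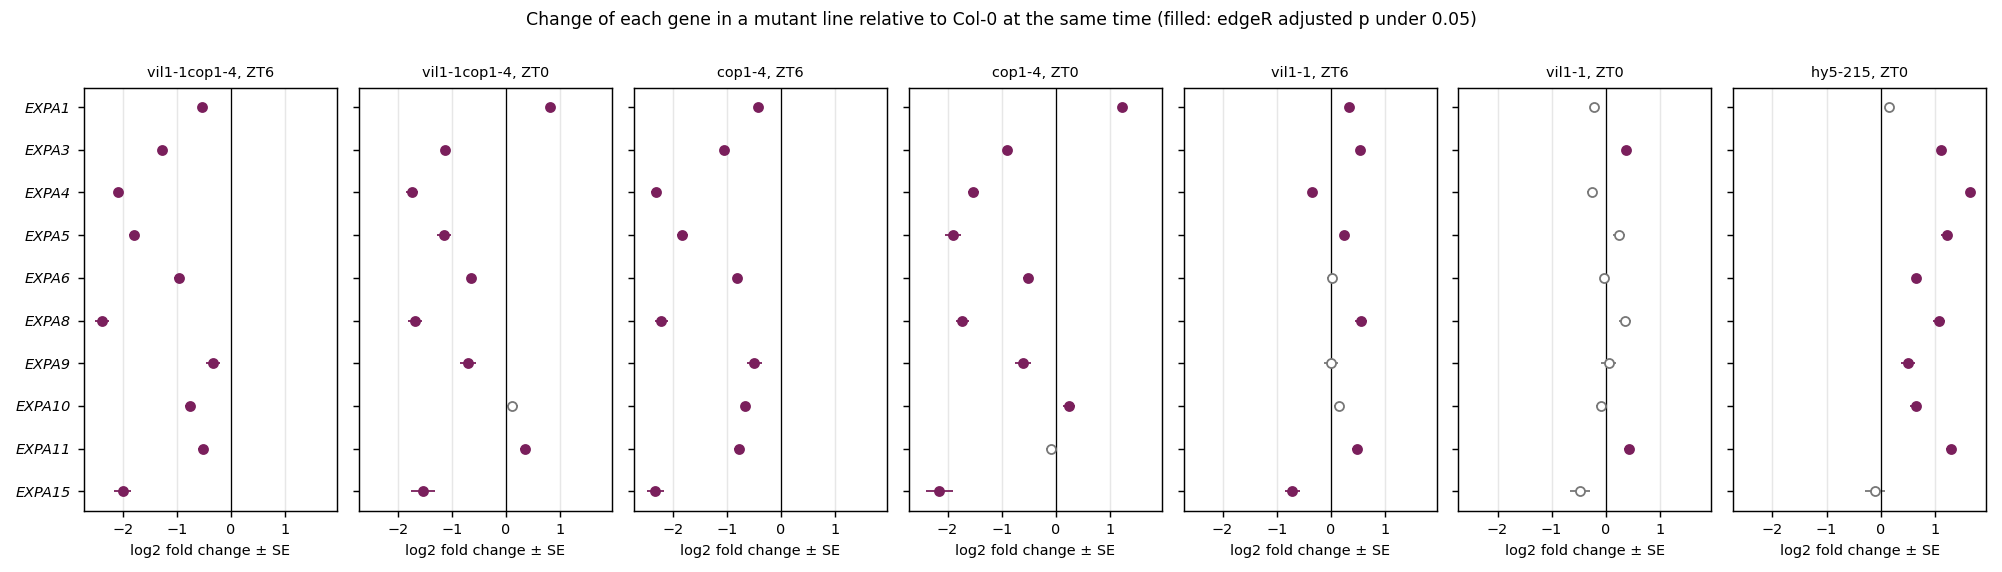
Log2 fold change of each gene in a mutant line against Col-0 at the same time, with its SE; filled points passed the edgeR threshold of 0.05 and open points did not. In cop1-4 all 10 points lie below 0 at ZT6, while at ZT0 EXPA1 lies at 1.22, and in hy5-215 8 points lie above 0 and are filled.

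The course between the times therefore differed in cop1-4 for part of the genes. EXPA1 was lower at ZT6 than at ZT0 in cop1-4, with 182, 174 and 188 CPM at ZT6 and 296, 368 and 372 CPM at ZT0, and fell by 0.93 ± 0.07 on the log2 scale (adjusted p = 8.9e-14), whereas it rose in Col-0. The difference between these courses was -1.66 ± 0.10 (1.1e-15). EXPA10 rose in cop1-4 by a log2 fold change of 0.87, against 1.76 in Col-0, a difference of -0.90 ± 0.14 (6.5e-07), and EXPA4 rose by 1.41, against 2.19 in Col-0, a difference of -0.78 (2.6e-05). EXPA11 had a log2 fold change of -0.04 in cop1-4 (adjusted p = 0.78) and 0.64 in Col-0, a difference of -0.68 (0.00021).

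EXPA15 and EXPA5, which were lower in cop1-4 than in Col-0 at both times, rose at ZT6 within cop1-4. EXPA15 had 12.8, 10.8 and 7.61 CPM at ZT6 and 1.95, 2.29 and 1.88 CPM at ZT0 in this line, a log2 fold change of 2.35 ± 0.25 (adjusted p = 2.4e-08), and EXPA5 a log2 fold change of 1.85 ± 0.15. Their differences from the Col-0 course were -0.16 ± 0.33 (adjusted p = 0.72) and 0.08 ± 0.18 (0.75), which did not pass the threshold. EXPA6, EXPA8 and EXPA9 did not pass the threshold within cop1-4, with log2 fold changes of 0.20, -0.28 and 0.22 and adjusted p-values of 0.052, 0.088 and 0.21. EXPA6 stayed short of it in 3 of 14 alternatives. It passed without cop1-4 ZT0 replicate 2 (0.0011) or 3 (0.031), without ZT6 replicate 2 (0.035) or 3 (0.024), with a replicate block (0.043), without the hy5-215 libraries (0.027), with the compared groups alone (0.011), under the stricter filter (0.0091) and with DESeq2 size factors (0.026), the DESeq2 Wald test (0.014) or upper-quartile scaling (0.0019). EXPA8 passed it without ZT0 replicate 1 (0.00086), and EXPA9 without ZT6 replicate 3 (0.0024) and under upper-quartile scaling (0.046). Within cop1-4, 5 members were higher and 1 was lower at ZT6, against 63.5% of all genes called, 30.2% higher and 33.4% lower. The test of a difference in course called 5 members, all with a negative difference, against 46.6% of all genes, 25.8% lower and 20.9% higher. The fifth was EXPA8 (-0.48, adjusted p = 0.034), which did not pass between the times in Col-0 (0.20, 0.12) or in cop1-4. Its call held in 8 of 20 alternatives, and without cop1-4 ZT0 replicate 2 the difference was -0.17 (0.33).

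**Figure D5:**
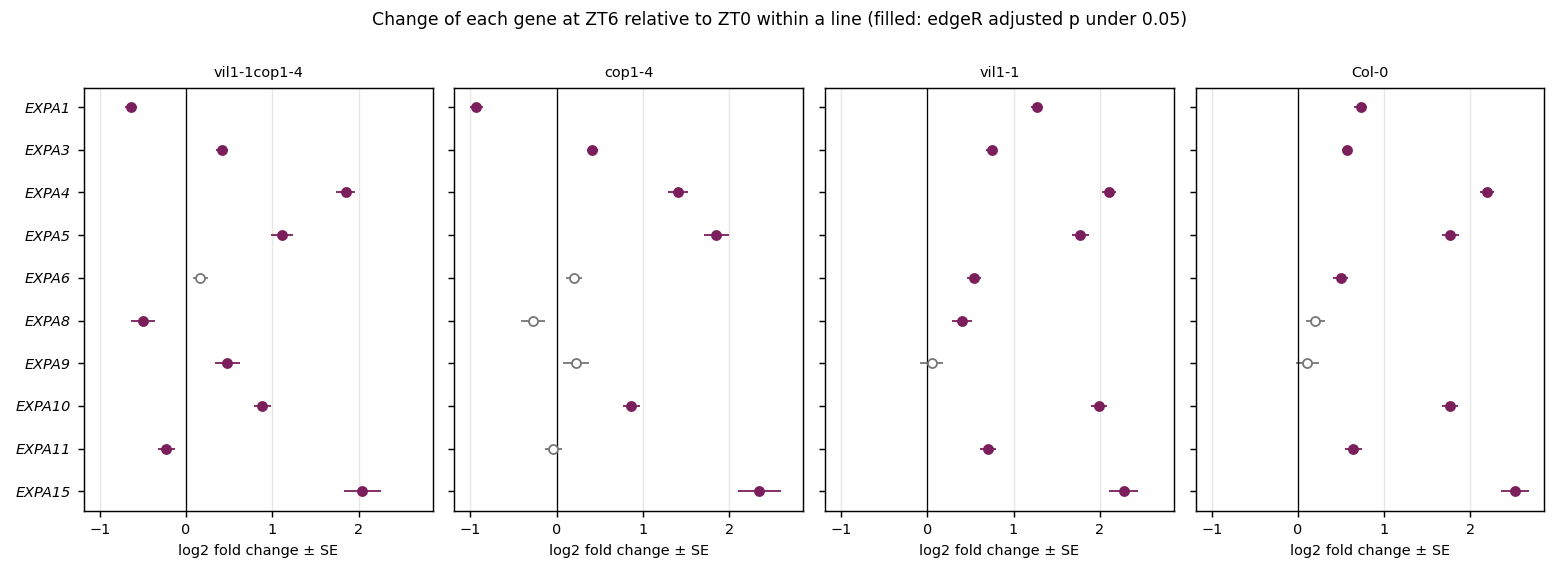
Log2 fold change of each gene at ZT6 against ZT0 within vil1-1cop1-4, cop1-4, vil1-1 and Col-0, with its SE; filled points passed the edgeR threshold of 0.05. EXPA1 lies at -0.64 and -0.93 in the lines that carry cop1-4, and at 1.27 in vil1-1 and 0.73 in Col-0.

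In hy5-215 at ZT0, 8 of the 10 genes were higher than in Col-0. EXPA4 had 66.7, 72.6 and 60.7 CPM in hy5-215 and 19.99, 21.1 and 22.4 CPM in Col-0, a log2 fold change of 1.66 ± 0.08 (adjusted p = 8.8e-18). EXPA11 had 79.8, 95.4 and 81.5 CPM in hy5-215 and 34.6, 37.3 and 32.5 CPM in Col-0, a change of 1.30 ± 0.09 (1.2e-11), and EXPA3 had 185, 187 and 170 CPM in hy5-215 and 83.6, 84.4 and 81.7 CPM in Col-0, a change of 1.12 ± 0.06 (2e-19). All 3 had hy5-215 libraries far above those of Col-0.

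EXPA5 and EXPA8 rose by 1.22 and 1.08 on the log2 scale in hy5-215, EXPA6 by 0.66, EXPA10 by 0.65 and EXPA9 by 0.50. EXPA9 had 47.1, 32.3 and 38.0 CPM in hy5-215 and 25.1, 30.8 and 27.7 CPM in Col-0, and its adjusted p of 0.0044 became 0.065 when these groups were fitted alone. The genes that did not pass the threshold were EXPA1, with 173, 167 and 153 CPM in hy5-215 and 155, 147 and 142 CPM in Col-0 (0.15 ± 0.07, adjusted p = 0.094), and EXPA15, with 9.17, 7.37 and 8.63 CPM in hy5-215 and 8.37, 8.65 and 10.2 CPM in Col-0 (-0.11 ± 0.18, adjusted p = 0.69). For EXPA1 a fit of the compared groups alone gave an adjusted p of 0.022, and leaving out hy5-215 replicate 3 gave 0.043. The median over the 10 genes was 0.87, and over all genes 39% were called, 20% higher and 19% lower. The summed root markers ran between 87.5 and 107 CPM in hy5-215 and between 141 and 155 CPM in Col-0, with IRT1 at 8.12 CPM in hy5-215 and 63.6 CPM in Col-0, and 1 of the 10 was higher and 3 lower. The part of root tissue in these values was not tested.

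Set side by side, EXPA4 at ZT0 had a mean of 7.32 CPM in cop1-4 and 66.7 CPM in hy5-215, against 21.1 CPM in Col-0, and EXPA8 had 30.5 CPM in cop1-4 and 214 CPM in hy5-215, against 101 CPM in Col-0. EXPA3, EXPA5, EXPA6 and EXPA9 were likewise lower in cop1-4 and higher in hy5-215 than in Col-0. EXPA1 and EXPA15 passed the threshold in cop1-4 and not in hy5-215, and the difference between these lines was not tested. Both sets of values rest on the same Col-0 libraries.

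In vil1-1 the changes were small and ran both ways. At ZT6, EXPA3 had 186, 175 and 180 CPM in vil1-1 and 132, 125 and 113 CPM in Col-0, a log2 fold change of 0.55 ± 0.06 (adjusted p = 2e-09), and EXPA8 had 175, 168 and 169 CPM in vil1-1 and 123, 112 and 114 CPM in Col-0, a change of 0.55 ± 0.11 (0.0012). EXPA15 had 31.0, 32.3 and 31.6 CPM in vil1-1 and 48.6, 53.3 and 54.0 CPM in Col-0, and fell by 0.71 ± 0.14 (0.00076). The libraries of these genes did not overlap between the lines.

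EXPA11 rose by 0.49, EXPA1 by 0.34 and EXPA5 by 0.25 on the log2 scale in vil1-1 at ZT6, and EXPA4 fell by 0.35. The EXPA5 call (adjusted p = 0.035) was lost without vil1-1 replicate 1 (0.12) or 2 (0.1) and without Col-0 replicate 1 (0.073) or 3 (0.16). In all, 5 members were higher and 2 lower, with 21% of all genes called, 10.4% higher and 10.6% lower. At ZT0, EXPA3 and EXPA11 were higher and 0 members lower, with 9.97% of all genes called, 5.19% higher and 4.78% lower. EXPA11 had 45.8, 47.5 and 47.1 CPM in vil1-1 and 34.6, 37.3 and 32.5 CPM in Col-0 at that time (0.43 ± 0.09, adjusted p = 0.0032), and EXPA3 had 112, 111 and 99.0 CPM in vil1-1 and 83.6, 84.4 and 81.7 CPM in Col-0 (0.37 ± 0.06, 1.9e-05). EXPA1, EXPA4, EXPA8 and EXPA15 did not pass the threshold at ZT0, with adjusted p-values of 0.055, 0.066, 0.055 and 0.12. These all fell under 0.05 when vil1-1 and Col-0 at ZT0 were fitted alone. The share of all genes called in that fit is not given here, so the change cannot be set against it.

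Within vil1-1, 9 members were higher at ZT6 than at ZT0 and 0 lower, with 68.9% of all genes called, 35.7% higher and 33.2% lower. EXPA1 passed the test of a difference in course from Col-0. It had 310, 291 and 326 CPM at ZT6 and 126, 128 and 130 CPM at ZT0 in vil1-1, a log2 fold change of 1.27, against 0.73 in Col-0. The difference was 0.55 ± 0.10 (adjusted p = 0.0012), in a test that called 2.24% of all genes, 1.24% higher and 0.998% lower.

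In the line that carries both mutations, all 10 genes were again lower than in Col-0 at ZT6, with a median of -1.12 and 65.6% of all genes called, 33.2% lower and 32.5% higher. EXPA8 had 22.5, 22.0 and 22.4 CPM in vil1-1cop1-4 and 123, 112 and 114 CPM in Col-0, a log2 fold change of -2.38 ± 0.13 (adjusted p = 8.6e-13), and EXPA4 had 25.0, 20.8 and 22.1 CPM in vil1-1cop1-4 and 96.6, 95.2 and 98.2 CPM in Col-0, a change of -2.09 (4.25-fold lower). The EXPA9 call (-0.34, adjusted p = 0.033) was lost without Col-0 replicate 1 (0.059) or 3 (0.099) and without vil1-1cop1-4 replicate 1 (0.071), 2 (0.14) or 3 (0.073). At ZT0, 7 members were lower and 2 higher than in Col-0, with 68.5% of all genes called, 33.8% lower and 34.8% higher. EXPA1 had 283, 264 and 237 CPM in vil1-1cop1-4 and 155, 147 and 142 CPM in Col-0, and rose by 0.82 on the log2 scale (2.3e-12). The summed root markers ran between 83.7 and 89.8 CPM in vil1-1cop1-4 and between 161 and 167 CPM in Col-0 at ZT6, where 3 of the 10 were higher and 3 lower, and their part was not tested. IRT1 was a large part of the Col-0 sum at ZT6, so the sum does not stand for the other markers.

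Against cop1-4 itself, 4 members passed the threshold at ZT0 and 1 at ZT6. Of all genes 17.4% were called at ZT0, 9.36% higher and 8% lower, and 17.8% at ZT6, 7.67% lower and 10.2% higher. At ZT0, EXPA5 had 5.10, 5.94 and 4.41 CPM in vil1-1cop1-4 and 2.87, 2.90 and 3.43 CPM in cop1-4, and rose by 0.76 (adjusted p = 0.00095), and EXPA11 had 46.3, 46.4 and 40.5 CPM in vil1-1cop1-4 and 27.7, 35.2 and 34.7 CPM in cop1-4, and rose by 0.45 (0.0022). EXPA1 fell by 0.40 and EXPA3 by 0.23, and the EXPA3 call (0.015) was lost without cop1-4 replicate 3 (0.24) or vil1-1cop1-4 replicate 3 (0.12). At ZT6, EXPA3 had 51.8, 51.1 and 50.05 CPM in vil1-1cop1-4 and 61.4, 60.0 and 56.9 CPM in cop1-4, a change of -0.22 (0.012). EXPA3 was thus higher with vil1-1 in COP1 plants and lower with it in cop1-4 plants, and the test of that difference gave -0.77 at ZT6 (1.9e-08) and -0.60 at ZT0 (1.3e-05), in tests that called 15.3% and 7.11% of all genes. For EXPA15 at ZT6 the difference was 1.03 (0.0032): it was lower with vil1-1 in COP1 plants (-0.71), while within cop1-4 its log2 fold change of 0.32 did not pass the threshold (0.24).

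Against vil1-1, the double mutant had 10 members lower at ZT6, where 59% of all genes were called and 29.5% were lower. The summed root markers ran between 83.7 and 89.8 CPM in vil1-1cop1-4 and between 145 and 160 CPM in vil1-1 at this time, with 2 of the 10 higher and 4 lower, and their part was not tested. IRT1 weighed heavily in this sum in Col-0, and its share in these 2 lines is not given here. EXPA8 had 22.5, 22.0 and 22.4 CPM in vil1-1cop1-4 and 175, 168 and 169 CPM in vil1-1, a log2 fold change of -2.94 (7.65-fold lower, adjusted p = 4.4e-14). The EXPA9 call (-0.33, 0.038) was lost without any 1 of the 3 libraries of either line, with adjusted p-values between 0.055 and 0.16. At ZT0, 7 members were lower and EXPA1 was higher, by 1.03 on the log2 scale, with 68% of all genes called, 34% in each direction. Between the times, vil1-1cop1-4 had 6 members higher and 3 lower at ZT6, with 64.3% of all genes called, 31.7% higher and 32.6% lower. The 3 were EXPA1 (-0.64), EXPA8 (-0.50, adjusted p = 0.0033) and EXPA11 (-0.23, 0.039), and the EXPA11 call was lost without vil1-1cop1-4 ZT0 replicate 1 (0.21) or 2 (0.24) and without ZT6 replicate 2 (0.25) or 3 (0.26).

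The other expansin genes did not follow one course. Of the further alpha-expansin genes, 9 passed the filter, and EXPA19 is not analysed here. In hy5-215 at ZT0, 4 of the 9 were higher and 1 lower than in Col-0, against 20% and 19% of all genes. In cop1-4 at ZT0, 0 were higher and 7 lower than in Col-0, against 34.7% and 33.9% of all genes. At ZT6, 1 was higher and 5 were lower in cop1-4, against 32.6% and 34% of all genes. In Col-0, 3 were higher and 4 lower at ZT6 than at ZT0, which is near the 36.9% and 34% of all genes. EXPA16 ran against the members by time: it had 0.646 ± 0.389 CPM at ZT6 and 8.75 ± 0.0880 CPM at ZT0 in Col-0, a log2 fold change of -3.76 (adjusted p = 2.3e-19), but like most members it was higher in hy5-215, at 26.3 ± 1.47 CPM, and lower in cop1-4, at 1.86 ± 0.454 CPM, than in Col-0 at ZT0. EXPA18, known with EXPA7 from root hairs, had 5.89 ± 0.237 CPM at ZT6 and 2.67 ± 0.476 CPM at ZT0 in Col-0.

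Of 10 beta-expansin and expansin-like genes, 6 passed the filter, and all 6 were higher in hy5-215 than in Col-0 at ZT0, against 20% of all genes higher and 19% lower. In cop1-4 against Col-0 at ZT0, 1 was higher and 4 were lower, against 34.7% and 33.9% of all genes. At ZT6, 2 were higher and 3 lower in cop1-4, against 32.6% and 34% of all genes. EXPB3, a beta-expansin, had the largest change by time among the expansin genes tested, with 252 ± 24.4 CPM at ZT6 and 6.24 ± 0.978 CPM at ZT0 in Col-0 (log2 fold change 5.34, adjusted p = 7.9e-16). At ZT6 it had 17.7 ± 3.75 CPM in cop1-4, 14.3-fold below Col-0. EXLA1, an expansin-like gene, moved the other way at ZT6, with 43.6 ± 2.71 CPM in cop1-4 and 5.79 ± 0.811 CPM in Col-0.

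Genes for the partners of expansins did not share one direction. In cop1-4 against Col-0 at ZT6, 32.6% of all genes were higher and 34% lower, at ZT0 34.7% and 33.9%, and in hy5-215 against Col-0 20% and 19%. Of 9 plasma-membrane proton pump genes past the filter, 2 were higher and 4 lower in cop1-4 than in Col-0 at ZT6, shares near those of all genes. AHA2 had 486 ± 21.3 CPM in cop1-4 and 977 ± 43.5 CPM in Col-0, while AHA11 had 114 ± 10.03 CPM in cop1-4 and 51.0 ± 3.30 CPM in Col-0. Of 9 primary-wall cellulose synthesis genes, 7 were higher and 1 was lower in cop1-4 at ZT6, among them COB, a protein that guides cellulose deposition, at 286 ± 7.37 CPM in cop1-4 and 208 ± 12.2 CPM in Col-0. In hy5-215 at ZT0 1 of these 9 genes was higher and 0 were lower. Of 10 growth transcription factors, 8 were higher and 0 lower in cop1-4 at ZT6, with PIF5 at 88.2 ± 0.760 CPM in cop1-4 and 53.4 ± 2.67 CPM in Col-0. At ZT0 5 were higher and 3 lower, and 3 of the higher and 1 of the lower changed at least 2-fold. PIF4, among the lower, had 29.4 ± 3.21 CPM in cop1-4 and 59.7 ± 3.11 CPM in Col-0. In hy5-215, 5 were higher and 2 lower, and 0 of the higher and 1 of the lower changed at least 2-fold. HYH, the close relative of HY5 and among the lower, had 13.2 ± 2.21 CPM in hy5-215 and 35.3 ± 1.82 CPM in Col-0.

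For the 3 members with the widest range, the genes most like them in pattern were taken as those with the highest Pearson r over the 9 group means of log2 CPM, among 7068 other named genes that averaged 5 CPM or more. For EXPA15 they were MGP1 (r = 0.989), FLA15 (0.986) and the gene listed as RLK (AT5G67280, 0.986). For EXPA4 they were PAP29 (0.985), NSP1 (0.982) and EXPA13 (0.982), another alpha-expansin. For EXPA5 they were FLA1 (0.991), SAH7 (0.991) and CYS1 (0.989). FLA1 and FLA15 belong to the fasciclin-like arabinogalactan proteins of the cell wall and surface. The points of each r are group means of the same libraries.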

How the data were processed

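The authors deposited 1 table of read counts per library, in whole numbers and not normalized. The submitters' processing notes name FastQC, STAR, edgeR and TAIR10; versions, and the strand setting of the counting step, are not given in the sources used here. The 5 lines of each table that name no gene did not enter any step, and between 90.8 and 96.2% of a table's reads lay in genes. filterByExpr kept 21448 of 32678 genes, library sizes were scaled by TMM, and a quasi-likelihood fit with 1 coefficient per group over all 27 libraries (18 residual degrees of freedom) was made with edgeR 4.0.16 (R 4.3.3, limma 3.58.1). The 15 comparisons of groups and 5 tests of a difference between comparisons were each adjusted by Benjamini-Hochberg over the 21448 genes; log2 fold changes are mutant over Col-0, the double mutant over a single mutant, or ZT6 over ZT0. CPM per kb divides by the union of exons in the TAIR10.1 annotation, which need not be the gene models used for counting. Coordinates and promoter letters also come from the TAIR10.1 genome, and all 79 listed identifiers matched its gene table. Replicates of a group differed beyond counting noise (chi-square per degree of freedom 2.3 to 8.02) and were each counted as 1. The method was also run on simulated counts, with a small part of the genes changed, equally in both directions, in cop1-4 against Col-0 at ZT0. Such counts do not test the scaling in the real comparison, where 68.5% of all genes were called.

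All 10 members were named; from the other lists, counts were taken with up to 2 called genes on each side by smallest p, of which the text gives some. EXPA19 is not analysed here. The members and lists were chosen with earlier results of these data known. Alternatives were DESeq2 size factors, upper-quartile scaling, DESeq2 1.42.0 in place of edgeR, no filter and a filter of 5 CPM in 3 libraries, the compared groups alone, a replicate block, each library left out in turn, and, chosen after seeing the data, a fit without hy5-215.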

Additional observations from a re-analysis of the deposited data

Results flagged for a closer look

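The course of a gene between ZT0 and ZT6, or the effect of vil1-1 in cop1-4 and COP1 plants, differed between lines in 19 tests. They come from 5 tests of each of the 10 genes. Each was a difference of log2 fold changes in edgeR's quasi-likelihood test, with Benjamini-Hochberg adjustment over all genes. The vil1-1, cop1-4 and vil1-1cop1-4 courses called 1, 5 and 7 members, against 2.24%, 46.6% and 49.6% of all genes. The vil1-1 by cop1-4 differences called 1 member at ZT0 and 5 at ZT6, against 7.11% and 15.3% of all genes. EXPA1 led these calls. Its ZT6 over ZT0 change exceeded that of Col-0 by 0.55 in vil1-1 (adjusted p = 0.0012). The change differed from that of Col-0 by -1.66 in cop1-4 (1.1e-15) and by -1.36 in vil1-1cop1-4 (1.4e-13).

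The other differences in course between cop1-4 and Col-0 were -0.90 for EXPA10, -0.78 for EXPA4, -0.68 for EXPA11 and -0.48 for EXPA8 (adjusted p = 0.034). In vil1-1cop1-4 they were -0.88 for EXPA10, -0.87 for EXPA11, -0.70 for EXPA8 (0.0026), -0.65 for EXPA5 (0.001), -0.34 for EXPA4 (0.045) and -0.33 for EXPA6 (0.029), in a test that called 49.6% of all genes, 26.5% lower. The calls of EXPA8 in cop1-4 and of EXPA4 and EXPA6 in vil1-1cop1-4 held in 8, 5 and 10 of 20 alternatives. The EXPA8 call was lost without Col-0 ZT0 replicate 2 or 3, Col-0 ZT6 replicate 1, cop1-4 ZT0 replicate 2 or 3, or cop1-4 ZT6 replicate 1 or 2 (adjusted p 0.055 to 0.33). The EXPA4 call was lost without Col-0 ZT0 replicate 1 or 2, any Col-0 ZT6 or vil1-1cop1-4 ZT0 library, or vil1-1cop1-4 ZT6 replicate 2 or 3 (0.053 to 0.25), and the EXPA6 call without Col-0 ZT0 replicate 1, Col-0 ZT6 replicate 2, vil1-1cop1-4 ZT0 replicate 1 or 2, or vil1-1cop1-4 ZT6 replicate 2 or 3 (0.056 to 0.22).

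The effect of vil1-1 in cop1-4 plants minus its effect in COP1 plants was -0.60 for EXPA3 at ZT0, and at ZT6 -0.77 for EXPA3, -0.73 for EXPA8 (0.0088), -0.44 for EXPA1 (0.0019), 0.57 for EXPA4 (0.0011) and 1.03 for EXPA15. At ZT6 EXPA8 thus had a vil1-1 effect of 0.55 within COP1 plants. Within cop1-4 the effect was -0.17, which did not pass the threshold (adjusted p = 0.44).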

How the results depend on the processing

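Over the alternatives, 3090 values of the 10 genes were recomputed in 200 results, and 2964 stayed on their side of the threshold with no called value turning sign. Of 1912 values whose main result passed the threshold, 1834 did so again, 77 did not and 1 turned: EXPA10 in cop1-4 against Col-0 at ZT0, at -0.0144 under upper-quartile scaling (adjusted p = 0.92). A further 48 values passed the threshold where the main fit had not, and among the 2964 were 61 values past it in neither fit that changed sign, none of them further from 0 than 0.14 under the alternative. The 77 lost values fell on 11 results: EXPA10 in cop1-4 at ZT0, EXPA11 in vil1-1cop1-4 at ZT0 (0.25 under upper-quartile scaling) and between its times, EXPA3 in vil1-1cop1-4 against cop1-4 at ZT0, EXPA5 in vil1-1 at ZT6, EXPA9 in hy5-215 and in vil1-1cop1-4 at ZT6 against Col-0 and against vil1-1, and the differences in course of EXPA8 in cop1-4 and of EXPA4 and EXPA6 in vil1-1cop1-4. These 3 held in 8, 5 and 10 of 20 alternatives. Under upper-quartile scaling their adjusted p-values were 0.14, 0.25 and 0.22, and with the DESeq2 Wald test 0.079, 0.087 and 0.059.

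Fitting the compared groups alone moved the number of members called to 6 (3 higher, 3 lower) for vil1-1 against Col-0 at ZT0 from 2, to 2 for vil1-1cop1-4 against cop1-4 at ZT6 from 1, to 2 for the vil1-1 course from 1, and to 2 for the vil1-1 by cop1-4 difference at ZT0 from 1, where the DESeq2 Wald test also gave 2. Without single libraries these counts ran between 2 and 3, 1 and 2, 1 and 1, and 1 and 3. The gains were EXPA4 without vil1-1 ZT0 replicate 3 (0.015) in the first, EXPA4 without cop1-4 ZT6 replicate 2 (0.045) in the second, and in the last EXPA8 (0.013) and EXPA1 (0.044) without cop1-4 ZT0 replicate 1 and EXPA15 without vil1-1 ZT0 replicate 3 (0.032). The count of all genes called moved to 1111 against 480 for the vil1-1 course and to 2395 against 3827 for vil1-1cop1-4 against cop1-4 at ZT6. The cause was not tested. In the main fit, 9.97% of all genes were called for vil1-1 against Col-0 at ZT0, and 7.11% for the vil1-1 by cop1-4 difference at ZT0. Their shares of all genes under the other fits are not given here, so these member counts cannot be set against them.

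Upper-quartile scaling shifted the median of all genes by -0.255 in cop1-4 against Col-0 at ZT0, -0.23 in vil1-1cop1-4 at ZT0, -0.105 in cop1-4 at ZT6, 0.135 between the times in cop1-4 and 0.138 in vil1-1cop1-4. The share of higher genes among those called became 32.4% against 50.6% in cop1-4 at ZT0, 34% against 50.7% in vil1-1cop1-4 at ZT0, 59.2% against 47.5% between the times in cop1-4 and 60.3% against 49.3% in vil1-1cop1-4, 33% against 50% in vil1-1cop1-4 against vil1-1 at ZT0 and 38.8% against 50% at ZT6, and 60.2% against 44.8% and 59.7% against 46.6% in the tests of the cop1-4 and vil1-1cop1-4 courses. EXPA1 in cop1-4 at ZT0 had a log2 fold change of 0.97 (adjusted p = 1.7e-13) under this scaling.

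The replicate numbers gave no sign of pairing the libraries: of 36 pairs of groups, 0 had every correlation of same-numbered deviations over 0.1 (range -0.0817 to 0.0878). A weak pairing, or one that touches few genes, could stay under that bar. With a replicate block, the members called became 7 against 6 between the times in cop1-4 and 8 against 9 in vil1-1cop1-4. They became 6 against 5 for the cop1-4 course and 6 against 7 for the vil1-1cop1-4 course, and the other 16 counts did not change. In the same order, the count of all genes called became 13594 against 13627, 13738 against 13796, 9897 against 10000 and 10532 against 10638. The fewest reads of a member in a library were 34; the effect of depth was not tested.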
